A study of Homo sapiens with 4 samples.

Results

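The insulin-like growth factor (IGF) axis was followed by 10 genes under 17β-estradiol (E2) in a pair of cancer cell lines. The genes were the receptors IGF1R, INSR and IGF2R, the receptor substrates IRS1 and IRS2, and the binding proteins IGFBP2, IGFBP3, IGFBP4, IGFBP5 and IGFBP6. They were chosen by name, and all 10 were found among the 33540 features of the Ishikawa table and the 33538 of the T-47D table. Ishikawa is an established line from an endometrial adenocarcinoma and T-47D one from a ductal carcinoma of the mammary gland. Both were kept for days in hormone-depleted medium and then given 10 nM E2 for 2, 4 or 8 h, and the 0 h culture of each line received the vehicle DMSO. Cells of the 4 times were tagged with MULTI-seq, a barcode oligonucleotide anchored in the membrane, mixed, and run as 1 single-cell library per line. Each line and time was thus 1 culture, so the changes had no replicate check and no test is given.

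IGF1R is the tyrosine kinase receptor of IGF1 and IGF2. INSR is the insulin receptor, and IGF2R takes IGF2 to the lysosome without signaling through a kinase. IRS1 and IRS2 are docked and phosphorylated at the active receptors and pass the signal to PI3K and AKT. The IGFBPs are secreted and hold the ligands in the fluid around the cell, and proteases such as PAPPA release the ligands again. Estrogen and IGF signaling are known to act together on the growth of breast and endometrial epithelium, and estrogen receptor α (ER, gene ESR1) is the factor through which E2 acts on transcription.

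The 8 pools held 553 to 1525 cells and 12927799 to 33175309 UMIs (unique molecular identifiers, which count captured transcripts once). The 0 h pool of Ishikawa stood apart in how many of its called cells passed the study's limits, 38.2% against 52.4% to 55.8% at the later times, while every called T-47D cell passed. GFP, present in Ishikawa, made up 4.67% of the UMIs at 0 h and 3.17% to 4.10% later. The epithelial markers EPCAM, KRT8, KRT18 and CDH1 were over 10 CPM in both lines. The 4 Mullerian markers summed to 259 to 313 CPM in Ishikawa and 0.232 to 0.542 CPM in T-47D, and the 4 mammary luminal markers to 15.1 to 21.9 CPM in Ishikawa and 1103 to 1270 CPM in T-47D, so the labels held. The 3 leukocyte markers summed to at most 0.304 CPM in any pool. The 3 stromal markers (COL1A1, DCN and LUM) summed to 19.9 to 28.9 CPM in Ishikawa, where DCN and LUM had 0 or 1 UMI in each pool, and to 13.1 to 16.9 CPM in T-47D. Of the kept cells, 5 barcodes occurred in both libraries. PGR, a target of ER, went from 129.5 to 355 CPM in T-47D over 8 h, and GREB1, another target, from 10.4 to 47.3 CPM. In Ishikawa both were under 10 CPM, PGR at 0.915 and then 4.71 CPM (5.15-fold, 2.97 to 9.65) and GREB1 at 1.18 and then 3.90 CPM (3.32-fold, 2.01 to 5.79).

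Levels are CPM, a gene's summed UMIs per 1000000 UMIs of its pool, with an exact Poisson interval at 95%. The fold rule asked for a mean level of 10 CPM or more across the 4 times of a line and for a change of 1.5-fold or more, or 0.58 in log2. Log2 changes compare CPM + 1 with its value at 0 h. The interval of a ratio is that of the plain CPM ratio. These intervals cover counting error only. Fewer cells making a transcript and fewer transcripts per cell cannot be told apart in a pool, and shares of cells are given for that reason further on. Because the libraries count the 3′ end of a transcript once, CPM is not scaled by length, and levels of different genes are set side by side only as captured transcripts.

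Of the 10 genes, 5 passed the minimum in Ishikawa (IGF2R, IRS2, IGFBP2, IGFBP3 and IGFBP5) and 5 in T-47D (IGF1R, IGF2R, IGFBP2, IGFBP4 and IGFBP5). Each of these was over 10 CPM at every time of its line. In Ishikawa no member passed the fold rule at 2 h or 4 h in either direction, and at 8 h IGFBP3 and IGFBP5 passed it downward. In T-47D IGFBP4 passed it upward at 2, 4 and 8 h, and IGF1R joined it at 8 h. As the background, 7887 Ishikawa features (GFP and tdTomato included) passed the minimum. The upward rule was met by 0.799%, 0.647% and 0.811% of them at 2, 4 and 8 h, and the downward rule by 0.659%, 0.621% and 0.469%. Of 7440 T-47D genes past the minimum, 1.22%, 1.33% and 2.34% met it upward at the same times and 0.417%, 0.363% and 0.726% downward. The counts of members, 2 lower of 5 in Ishikawa and 2 higher of 5 in T-47D at 8 h, were thus read against backgrounds of 0.469% and 2.34%. The median log2 change of the 5 members was -0.06 in Ishikawa and 0.54 in T-47D at 8 h, beside 0.0015 and 0.0063 over the whole background.

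**Figure D1:**
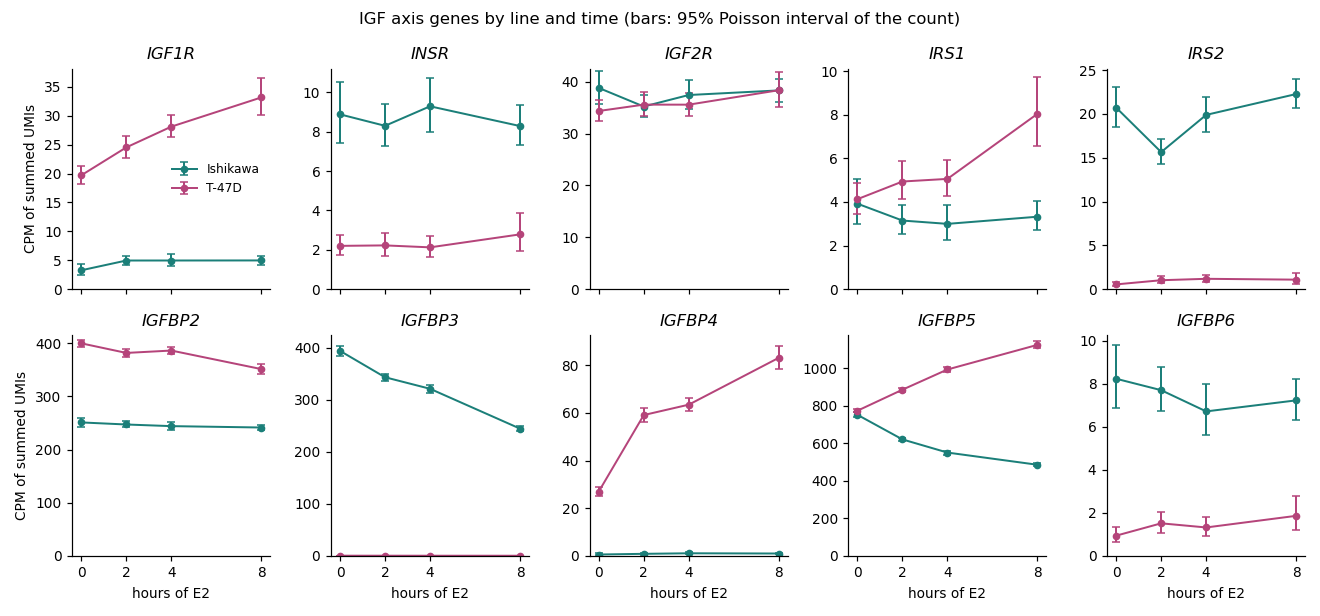
CPM of summed UMIs (y axis, linear, a scale per panel) against hours of E2 (x axis) for the 10 genes, green for Ishikawa and magenta for T-47D. Points are single pools and bars are exact Poisson intervals at 95%. IGFBP5 started at 751 CPM (Ishikawa) and 773 CPM (T-47D) and ended at 485 and 1123 CPM, and IGFBP4 went from 27.0 to 83.2 CPM in T-47D.

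Among the receptors, IGF1R was the one with the larger differences. In T-47D its levels at the 4 times were 19.7, 24.5, 28.1 and 33.2 CPM. Each pool was higher than the one before it, and the intervals of 0 h (18.2 to 21.3) and 8 h (30.1 to 36.5) were far apart. The 8 h level was 1.68 times that of 0 h (1.49 to 1.90), a log2 change of 0.72 and the only step of IGF1R past the rule, and it stood at place 112 of 7440 genes ordered from the highest. In Ishikawa IGF1R was scarce, with 50, 148, 96 and 154 UMIs at 0, 2, 4 and 8 h, or 3.27, 4.96, 4.96 and 4.97 CPM. The 3 later pools were alike and each near 1.52 times 0 h (1.10 to 2.14 at 8 h), but the gene was under the minimum. With every called cell in place of those within the limits, the 8 h log2 change in Ishikawa was 0.18 in place of 0.48.

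INSR was low in both lines. Its UMIs numbered 136, 248, 180 and 257 in Ishikawa at the 4 times, while T-47D gave 73, 59, 63 and 36. In CPM this was 8.29 to 9.30 in Ishikawa and 2.12 to 2.78 in T-47D. The 8 h ratio was 0.933 (0.755 to 1.16) in Ishikawa and 1.27 (0.825 to 1.91) in T-47D, and both intervals held 1. In Ishikawa this depended on the choice of cells. The 8 h log2 change of -0.09 was -0.38 with every called cell. It was 0.24 in cells with no UMI of the division genes TOP2A and MKI67. IGF2R was short of the rule at every time in both lines. It measured 38.8, 35.2, 37.4 and 38.3 CPM in Ishikawa and 34.4, 35.6, 35.6 and 38.4 CPM in T-47D. Its 8 h ratios were 0.988 (0.894 to 1.09) and 1.12 (1.003 to 1.24). With every called cell its log2 change in Ishikawa was -0.38 at 2 h and -0.28 at 8 h, in place of -0.14 and -0.02. The share of IGF1R in the summed UMIs of IGF1R and INSR was 89.96% to 92.98% in T-47D at the 4 times. In Ishikawa it was 26.9% (20.7 to 33.9, exact binomial interval) at 0 h and 37.5% (32.8 to 42.3) at 8 h.

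Of the substrates, IRS2 separated the lines, while IRS1 began at 3.92 CPM in Ishikawa and 4.13 CPM in T-47D. IRS2 had 20.7, 15.6, 19.9 and 22.3 CPM in Ishikawa. T-47D gave only 18, 27, 35 and 14 UMIs of it, which is 0.543 to 1.18 CPM. The 2 h pool of Ishikawa was the low one, at 0.755 times 0 h (0.653 to 0.873), a log2 change of -0.38 that did not pass the rule, and the 4 h and 8 h pools were back near the start. That 2 h change was -0.62, past the rule, with every called cell. IRS1 carried 137, 131, 150 and 104 UMIs in T-47D, or 4.13, 4.94, 5.06 and 8.04 CPM. Its 8 h level was 1.95 times that of 0 h (1.49 to 2.53) and 1.59 times that of 4 h (1.23 to 2.06), so the difference lay between 4 h and 8 h, yet the gene was under the minimum. In Ishikawa IRS1 stayed between 2.995 and 3.92 CPM, and its 8 h ratio was 0.848 (0.611 to 1.19). IRS1 made up 81.1% to 88.4% of the IRS1 and IRS2 UMIs in T-47D and 13.0% to 16.8% in Ishikawa, shares that at 0 h differed through IRS2.

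IGFBP4, a binding protein that is cut by the protease PAPPA, had the largest log2 change among the members past the minimum. In T-47D it measured 27.0, 59.1, 63.5 and 83.2 CPM from 0 h to 8 h. The first 2 h held the largest step, 2.19-fold (2.02 to 2.38), the next step was 1.07-fold (1.00 to 1.15), and the last was 1.31-fold (1.21 to 1.41). The 8 h ratio was 3.08 (2.82 to 3.37), and the log2 changes of 1.10, 1.20 and 1.59 put IGFBP4 at places 34, 24 and 17 of 7440 genes. In Ishikawa the same gene had 8, 24, 20 and 29 UMIs, at most 1.03 CPM. Its 8 h ratio there, 1.79, had an interval of 0.798 to 4.53, so a change like that of T-47D could be neither seen nor set aside at this depth.

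IGFBP5, the most captured member in both lines, went opposite ways. In Ishikawa it measured 751, 619.7, 549.7 and 485 CPM, and in T-47D 773, 885, 992 and 1123 CPM. Every later pool was below 0 h in Ishikawa and above 0 h in T-47D. The 8 h ratio was 0.646 (0.630 to 0.662) in Ishikawa, a log2 change of -0.63 past the rule. In T-47D it was 1.45 (1.42 to 1.48), a log2 change of 0.54 short of the rule, which it passed at 0.60 when cells over 1.5 times the median UMIs were left out. By CPM the lines thus began 1.03-fold apart (T-47D over Ishikawa, 1.01 to 1.05) and ended 2.32-fold apart (2.27 to 2.37). These intervals leave out the scaling between the libraries. With TMM scaling factors, 4 of 10 line ratios at 0 h stayed within their counting intervals. In Ishikawa the call rested on choices of cells, and at 8 h it was lost at -0.58 with an upper UMI limit of 1.5 times the median, at -0.56 when each cell counted equally, and at -0.34 in cells with no UMI of the division genes TOP2A and MKI67.

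IGFBP3, the main carrier of IGFs in blood, was abundant in Ishikawa and near 0 in T-47D. In Ishikawa it measured 394, 344, 321 and 245 CPM, lower at each time than at the one before. The 8 h ratio was 0.621 (0.5998 to 0.642), a log2 change of -0.69, with the largest step, 0.761-fold (0.736 to 0.788), between 4 h and 8 h. Under 10 alternatives of scaling, pseudocount and choice of cells the 8 h change ran from -0.79 to -0.66 and passed the rule each time. T-47D gave 3, 2, 1 and 0 UMIs of IGFBP3, and the exact interval of the 0 UMIs at 8 h reached 0.285 CPM (3 counts would be 0.232 CPM).

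IGFBP2 was short of the rule in both lines, and IGFBP6 was under the minimum in both. IGFBP2 measured 251, 247, 244 and 242 CPM in Ishikawa and 400.1, 382, 386 and 352 CPM in T-47D. Its 8 h ratios were 0.962 (0.925 to 1.00) and 0.879 (0.850 to 0.909). IGFBP6, which prefers IGF2 over IGF1, had 6.71 to 8.23 CPM in Ishikawa and 31, 40, 39 and 24 UMIs in T-47D, or 0.934, 1.51, 1.32 and 1.86 CPM. Its 8 h ratio was 0.878 (0.703 to 1.10) in Ishikawa. In T-47D that ratio was 1.99, on few counts, and its interval of 1.12 to 3.50 did not hold 1.

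**Figure D2:**
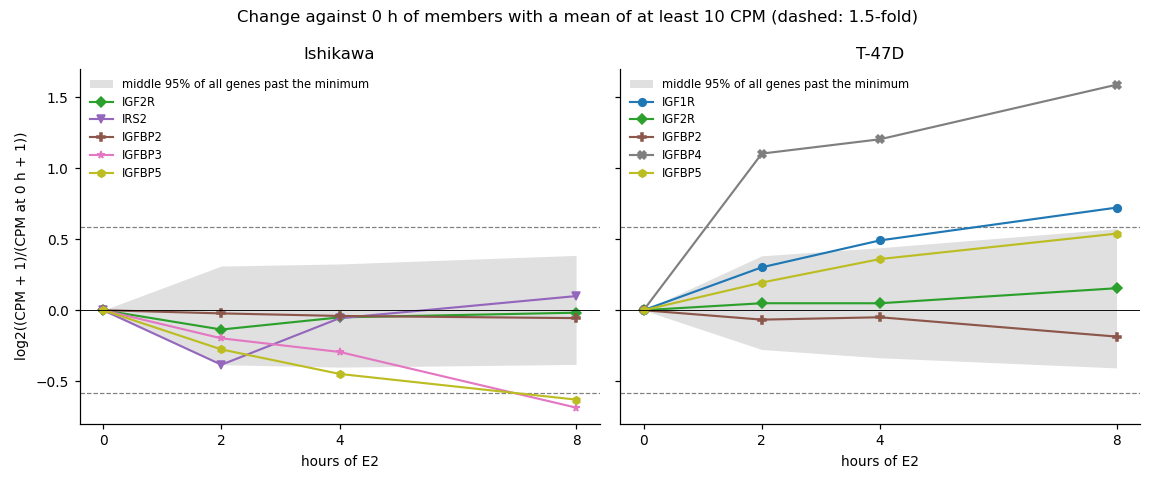
Log2((CPM + 1)/(CPM at 0 h + 1)) (y axis) against hours of E2 (x axis) for the 5 members past the minimum in each line. The grey band holds the middle 95% of all genes past the minimum and dashed lines mark 1.5-fold. At 8 h IGFBP3 (-0.69) and IGFBP5 (-0.63) lay under the band in Ishikawa, and IGFBP4 (1.59) and IGF1R (0.72) above it in T-47D.

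The genes of IGFBP1 to IGFBP6 together gave 1406, 1220, 1124 and 980 CPM in Ishikawa and 1201, 1327, 1444 and 1560 CPM in T-47D. The summed level was lower at each later time in Ishikawa and higher at each later time in T-47D. In Ishikawa the share of IGFBP2 in this sum went from 17.9% (17.4 to 18.4) to 24.6% (24.2 to 25.1), that of IGFBP3 from 28.0% to 24.97%, and that of IGFBP5 from 53.4% to 49.5%. IGFBP2 gained share there with a CPM that was 0.962 times its start, as the other 2 abundant genes were lower. In T-47D IGFBP5 went from 64.4% (63.9 to 64.8) to 72.0% (71.4 to 72.6), IGFBP4 from 2.25% (2.10 to 2.40) to 5.33% (5.02 to 5.65), and IGFBP2 from 33.3% to 22.5%. IGFBP1, the binding protein of the decidualized endometrium, had 16 to 34 UMIs per pool in Ishikawa and 0 in all 4 T-47D pools.

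**Figure D3:**
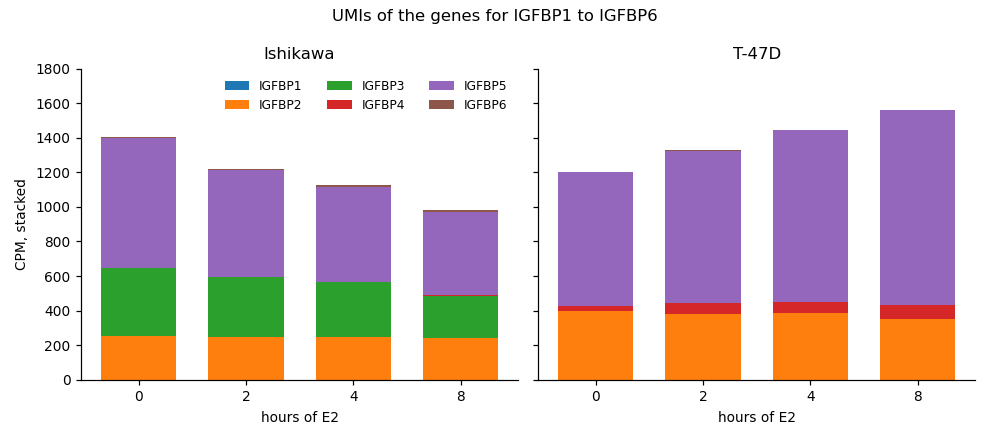
Stacked CPM (y axis) of the genes for IGFBP1 to IGFBP6 against hours of E2 (x axis), 1 bar per pool. In Ishikawa the whole bar went from 1406 to 980 CPM. The T-47D bar went from 1201 to 1560 CPM, and IGFBP5 took 72.0% of it at 8 h.

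The promoter windows of the 4 genes that passed the fold rule are shown because the members that moved differ in them. Windows run from 250 bases before to 50 bases after the start site, are taken from RefSeq on GRCh38.p14, and are read 5′ to 3′ on the gene's strand. IGFBP4 lies at chr17:40443200-40443499 on the plus strand, IGF1R at chr15:98648289-98648588 on the plus strand, IGFBP3 at chr7:45921223-45921522 on the minus strand and IGFBP5 at chr2:216695500-216695799 on the minus strand. Capitals mark the ER motif arm GGTCA, the GC box GGGCGG and the TATA box TATAAA, each on either strand.
IGFBP4: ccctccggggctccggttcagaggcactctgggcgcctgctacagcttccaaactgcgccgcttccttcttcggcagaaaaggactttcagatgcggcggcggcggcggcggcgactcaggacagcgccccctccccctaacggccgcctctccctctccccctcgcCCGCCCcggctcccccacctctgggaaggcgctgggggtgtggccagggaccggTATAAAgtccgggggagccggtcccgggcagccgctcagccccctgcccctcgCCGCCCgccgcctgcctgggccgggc
IGF1R: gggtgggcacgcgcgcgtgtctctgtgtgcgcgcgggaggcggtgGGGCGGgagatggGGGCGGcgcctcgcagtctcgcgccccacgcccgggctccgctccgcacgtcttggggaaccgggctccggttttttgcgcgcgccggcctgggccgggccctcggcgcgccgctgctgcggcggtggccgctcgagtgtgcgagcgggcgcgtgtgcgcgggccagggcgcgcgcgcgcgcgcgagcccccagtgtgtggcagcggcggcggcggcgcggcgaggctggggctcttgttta
IGFBP3: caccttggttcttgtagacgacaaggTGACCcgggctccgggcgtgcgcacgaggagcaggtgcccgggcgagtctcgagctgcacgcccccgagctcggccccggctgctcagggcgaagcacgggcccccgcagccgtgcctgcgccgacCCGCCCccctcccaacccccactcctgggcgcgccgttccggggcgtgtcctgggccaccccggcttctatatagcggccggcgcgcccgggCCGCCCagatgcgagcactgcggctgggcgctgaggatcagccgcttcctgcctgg
IGFBP5: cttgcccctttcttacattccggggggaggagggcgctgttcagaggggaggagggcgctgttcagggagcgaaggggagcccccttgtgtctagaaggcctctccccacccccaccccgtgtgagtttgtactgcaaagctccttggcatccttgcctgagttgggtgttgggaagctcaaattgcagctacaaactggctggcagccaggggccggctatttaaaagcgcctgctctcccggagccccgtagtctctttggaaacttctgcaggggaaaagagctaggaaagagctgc

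The full ER element GGTCANNNTGACC, in which N is any base and which holds that arm on each strand, was in none of the 12 windows of the 10 genes and in 0.0570% of 35116 windows in the genome. The arm alone was in 37.4% of all windows. It occurred in 1 of the 4 windows shown, that of IGFBP3, at position -224 from the start. Among the members short of the fold rule, IGF2R held the arm 2 times, and 1 of the windows of IGFBP2 held it. Of the 10 genes, only IGFBP4 had the exact letters TATAAA, at position -29, and 11.5% of all windows held them. Looser forms of the TATA box, such as tatttaaa in the IGFBP5 window and tatata in that of IGFBP3, were not searched for. The GC box stood 2 times each in the windows of IGFBP4, IGF1R and IGFBP3 and was absent from that of IGFBP5, and 44.95% of all windows held it. The windows held 30 (IGFBP4), 55 (IGF1R), 36 (IGFBP3) and 9 (IGFBP5) CpG dinucleotides, against a median of 14. These are letters within 300 bases and say nothing of distant sites, through which ER often acts.

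Shares of cells were compared after each cell was thinned to 10000 UMIs. In T-47D, 22.1% of 1525 cells (20.04 to 24.3, exact binomial interval) had a UMI of IGFBP4 at the start. The share was 41.01% after 2 h, 40.3% after 4 h and 50.1% of 553 cells (45.8 to 54.3) after 8 h. The UMIs per cell with any went from 1.34 to 1.70, so both the share and the count per positive cell were higher. The mean over all thinned cells was 0.295 UMIs at 0 h and 0.850 at 8 h. At such means an even rise in every cell raises both, so they cannot tell more positive cells from more transcripts per cell. Unthinned, the shares were 38.4% and 72.3%. IGF1R was seen in 16.7%, 19.6%, 24.2% and 26.6% of T-47D cells, and IRS1 in 3.15% (2.33 to 4.15) at 0 h and 8.32% (6.15 to 10.9) at 8 h. As measures of background, the leukocyte gene PTPRC was seen in at most 0.181% of thinned cells of any pool, and IGFBP3 in 0.131% of T-47D cells at 0 h.

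In Ishikawa IGFBP3 was seen in 76.7% of 759 cells (73.5 to 79.6) at the start. It was 74.6%, then 73.9%, and last 65.5% of 1442 cells (63.0 to 68.0). Cells with any had 4.86 UMIs at 0 h and 3.61 at 8 h. For IGFBP5 the share was 74.4% (71.2 to 77.5) at 0 h and 70.2% (67.7 to 72.5) at 8 h, and the UMIs per positive cell went from 10.1 to 7.13. The lower pool level of IGFBP5 thus went mainly with fewer UMIs per positive cell. IGFBP4 was seen in 0.395% of Ishikawa cells at 0 h and 0.832% at 8 h, with intervals that overlapped.

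**Figure D4:**
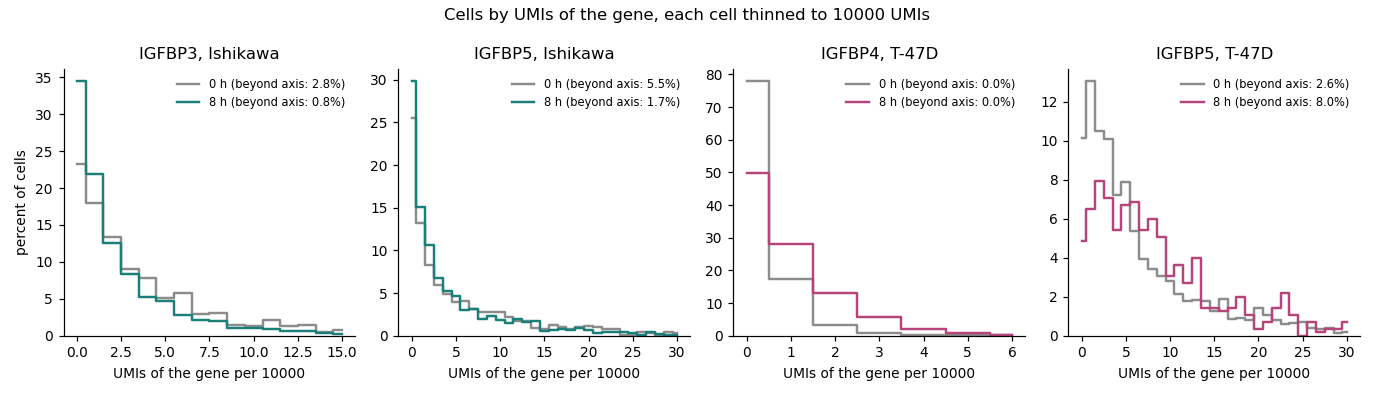
Percent of cells (y axis) by the number of UMIs of a gene (x axis) after thinning each cell to 10000 UMIs, grey at 0 h and colored at 8 h. Cells with no UMI of IGFBP3 went from 23.3% to 34.5% in Ishikawa, while those with no UMI of IGFBP4 went from 77.9% to 49.9% in T-47D, and cells beyond the x axis are counted in each legend.

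IGFBP5 and IGFBP3 varied more between cells than nearly all genes past the minimum once a fit on the mean was taken off. At 0 h the variance of IGFBP5 UMIs over thinned Ishikawa cells was 17.8 times the mean, 25.6% of cells had none where a Poisson count of the same mean gives 0.0558%, and the 10% of cells with most held 47.3% of its UMIs. In T-47D the variance was 10.7 times the mean and the top 10% of cells held 38.2%. After a smooth fit of the coefficient of variation on the mean, IGFBP5 stood at percentile 99.6 of 7945 genes in Ishikawa and 99.0 of 7393 in T-47D, and IGFBP3 at 99.1 in Ishikawa. These percentiles rank the residuals over all genes fitted, not within groups of like level. IGFBP2, also abundant, had a variance of 1.94 times the mean in Ishikawa and 2.28 in T-47D, and IGF2R stood at percentiles 81.6 and 82.9. Since the cells spread beyond Poisson counts, the intervals of the IGFBP5 and IGFBP3 pools are narrower than the spread over cells would make them. In T-47D IGF1R moved from percentile 91.6 at 0 h to 43.9 at 8 h, with 48.3 at 2 h and 86.0 at 4 h, so its course was not steady.

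Cells with a UMI of TOP2A or MKI67 before thinning, which deeper cells show more often, were set beside those without. In Ishikawa IGFBP3 was higher in the cells with such UMIs at all 4 times, 1.252 to 1.36 times. IGFBP5 was lower in them, 0.902 times (0.867 to 0.938) at 0 h and 0.660 times (0.639 to 0.682) at 8 h. In CPM, IGFBP5 went from 727 to 421 in the cells with division UMIs and from 806 to 638 in those without. In T-47D IGFBP5 was 0.857 to 0.960 times as high in the cells with such UMIs, and IGF1R 0.976 to 1.10 times. Cells with division UMIs were 513 of 776 in Ishikawa at 0 h and 230 of 553 in T-47D at 8 h, and the part of the cell cycle in the pool changes was not tested beyond leaving those cells out.

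Members were next compared between the third of cells with most and the third with fewest UMIs of 5 E2 targets, at 10000 UMIs per cell. In T-47D the targets were PGR, GREB1, TFF1, CXCL12 and PDZK1, and at 8 h each class held 184 cells. IGF1R had 92 UMIs in the high class and 32 in the low class, or 50 and 17.4 CPM, 2.88-fold apart (1.90 to 4.44). At 0 h, with 508 cells per class, the ratio was 1.51 (1.14 to 2.01). IRS1 had 26 UMIs in the high class and 6 in the low class at 8 h, a ratio of 4.33 (1.74 to 12.9), and IGFBP4 measured 111 and 61.4 CPM, 1.81-fold apart (1.43 to 2.30). IGFBP5, which was higher at 8 h over the whole pool, did not follow the classes, with a ratio of 1.04 (0.979 to 1.11), and IGFBP2 gave 0.901 (0.808 to 1.00). In Ishikawa the targets were TGFA, GREB1, PGR, DHRS3 and KCNK15. At 8 h the 480 cells per class gave 0.761 (0.701 to 0.827) for IGFBP3, 1.05 (0.993 to 1.11) for IGFBP5 and 1.29 (1.04 to 1.59) for IGF2R. These classes lay close, with 0 target UMIs in each low cell and 1 to 7 in each high cell. In T-47D at 8 h they were at most 3 and at least 6. At 0 h in Ishikawa both classes held cells with 0 target UMIs. IGFBP3 then gave 1.03 (0.936 to 1.13) and IGFBP5 1.21 (1.13 to 1.29). Low and high classes of T-47D at 8 h had 31.5% and 25% of cells with division UMIs, counted here after thinning. Their medians before thinning were 9.69% and 11.1% mitochondrial UMIs and 22503 and 22911 UMIs per cell. The part of these in the ratios was not tested.

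**Figure D5:**
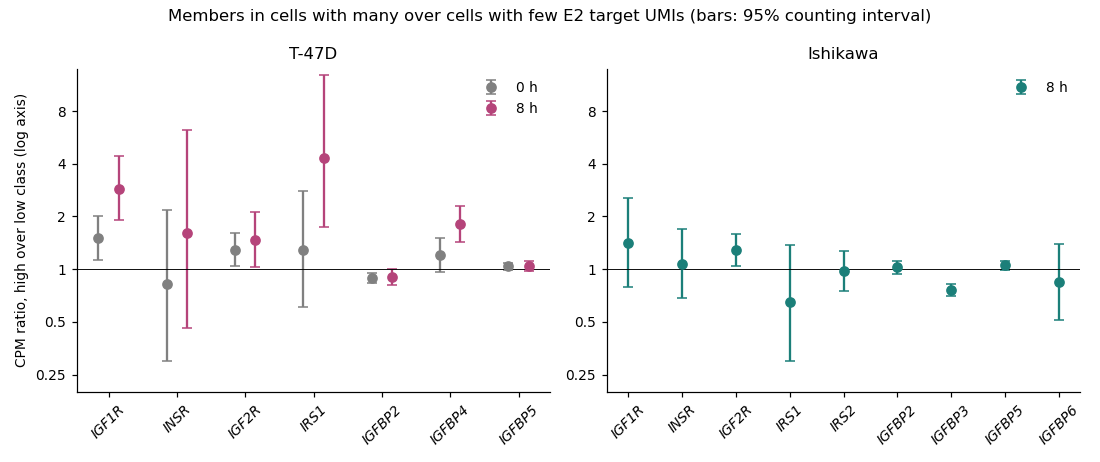
Ratio of CPM in cells with most over cells with fewest E2 target UMIs (y axis, log scale) by gene (x axis), with counting intervals at 95%, for members with at least 5 UMIs in each class. In T-47D at 8 h (magenta) IGF1R (2.88), IRS1 (4.33), IGFBP4 (1.81) and IGF2R (1.47) lay above 1 and IGFBP5 at 1.04. In Ishikawa IGFBP3 lay at 0.761 and IGF2R at 1.29.

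Before E2 most members differed between the lines, each of which was 1 culture in its own library. Line and library cannot be told apart here, and the limits set on cells differed by line. IGFBP3 was 394 CPM in Ishikawa and 3 UMIs in T-47D, a ratio with an interval of 1491 to 21150. IGFBP4 was 51.6 times higher in T-47D (26.1 to 119.9), though on 8 Ishikawa UMIs, and IRS2 38.2 times higher in Ishikawa (23.8 to 65.3). IGF1R was 6.03 times higher in T-47D (4.52 to 8.22), INSR 4.04 times (3.02 to 5.44) and IGFBP6 8.81 times (5.91 to 13.5) higher in Ishikawa. IGFBP2 was 1.59 times higher in T-47D (1.54 to 1.65). IRS1 gave a T-47D to Ishikawa ratio of 1.05 (0.772 to 1.45), IGF2R 0.885 (0.801 to 0.980) and IGFBP5 1.03, and for IGF2R and IGFBP5 the direction turned with the scaling. By 8 h IRS1 was 2.42 times higher in T-47D (1.83 to 3.21).

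For each member past the fold rule, the 5 genes with the nearest log2 changes at 2, 4 and 8 h were taken, by Euclidean distance over 3 values that share the 0 h pool. PGR, the progesterone receptor, was nearest to IGFBP4 in T-47D, with changes of 1.00, 1.11 and 1.45 and a distance of 0.196, and SFXN2, HSPB8, B4GALT1 and KDM4B followed. Nearest to IGF1R was PCNT of the centrosome (0.28, 0.44 and 0.75, distance 0.0621), before MCM7, CAP2, PTP4A2 and KRT8. In Ishikawa IGFBP5 was itself the fourth nearest gene to IGFBP3 (distance 0.183), after ADGRF1, TMUB2 and DDR1 and before AGR2. ITGB6, COL1A1, ZNF487, DDR1 and UBL7-AS1 were nearest to IGFBP5. COL1A1 is a collagen gene and 1 of the stromal markers, at 28.9, 23.3, 21.4 and 19.8 CPM in Ishikawa, and its part in the IGFBP changes was not tested.

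Another 52 genes of the pathway were counted, of which 24 passed the minimum in Ishikawa and 25 in T-47D. The ligands were near the limit of counting. IGF2 had 3 UMIs over the 4 pools in each line, on a locus with overlapping gene models, IGF1 0 to 2 UMIs per Ishikawa pool and 0 to 3 per T-47D pool, and IGFALS, which carries IGFs with IGFBP3 in blood, at most 15. IGFBP7, the more abundant of the other binding proteins, measured 7.19, 7.80, 11.8 and 7.10 CPM in Ishikawa. STC2, an inhibitor of the protease PAPPA, passed the rule in T-47D at all 3 times, at 27.3, 78.5, 95.5 and 104.6 CPM and 3.83-fold (3.52 to 4.18) at 8 h. In Ishikawa STC2 measured 17.9, 20.4, 20.8 and 21.1 CPM, 1.18-fold at 8 h (1.02 to 1.36). STC1, its relative, was under the minimum at 1.45, 5.16, 4.28 and 7.503 CPM in T-47D, an 8 h ratio of 5.19 (3.63 to 7.49). PAPPA itself had 0.965, 0.603, 0.877 and 0.464 CPM in T-47D, on 6 to 32 UMIs, and the intervals of its 3 ratios to 0 h all held 1 (0.164 to 1.17 at 8 h).

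GRB10, an adaptor that holds back insulin and IGF1 receptors, was the other pathway gene past the rule in T-47D, at 9.04, 11.5, 14.7 and 14.2 CPM, with log2 changes of 0.65 at 4 h and 0.59 at 8 h. Its relatives GRB14 and GRB7 were under the minimum in T-47D and lower after E2. GRB14 measured 11.2, 7.502, 6.81 and 3.33 CPM, an 8 h ratio of 0.297 (0.212 to 0.409), and the 8 h ratio of GRB7 was 0.616 (0.458 to 0.818). In Ishikawa TRIB3, an inhibitor of AKT, was lower at 2 h (33.5 to 21.7 CPM, log2 change -0.61) and near its start at 4 h and 8 h. PIK3R3, a regulatory subunit of PI3K, was lower at 4 h (36.0 to 22.6 CPM, -0.65), and its T-47D level of 44.9, 34.3, 31.5 and 31.4 CPM was also lower at each time, short of the rule. No other of the 52 genes passed it. Among the most captured genes of the other roles were SORL1, GRB2, PDPK1 (Ishikawa), PIK3R1 (T-47D), PTPN2 (Ishikawa) and FOXO3, none of them past the rule. Of these GRB2, an adaptor that links receptors to RAS, stood between 90.7 and 98.2 CPM in all 8 pools. The median log2 change of the 24 genes was -0.03 in Ishikawa and that of the 25 genes -0.03 in T-47D at 8 h.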

How the data were processed

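Single-cell RNA-seq was made from 1 culture per line and time, with 10x Genomics 3′ chemistry and MULTI-seq tags. The deposited matrices hold counts of UMIs per gene and barcode, made by the authors with Cell Ranger 3.1.0 on hg38 per the labels. A deposited table gives the time point, a doublet call or no call for each barcode. No batch is recorded beyond the line's library.

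Barcodes with 1 time call were kept within the limits of the study's methods, which set UMIs (8500 to 35000 in Ishikawa, 7500 to 40000 in T-47D), detected genes (2700 to 6000 and 1500 to 6000) and the mitochondrial share (under 7% and under 20%). This left 4613 of 9077 called Ishikawa cells and 4626 of 4626 T-47D cells. Tag doublets (1906 and 1442 barcodes) and barcodes with no call (4002 and 12120) were left out, no further doublet caller was run, and pairs of cells from the same culture stayed in.

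Pool levels (CPM) are the summed UMIs of the kept cells, scaled to the total of the pool. Poisson intervals, conditional binomial intervals of ratios and Clopper-Pearson intervals of shares were exact, at 95%. With 1 culture per group no test was run. Cells were thinned to 10000 UMIs by a seeded draw without replacement, which left out 90 Ishikawa cells. Noise residuals came from a smooth fit (mgcv 1.9.3 in R 4.3.3) of the coefficient of variation on the mean. TMM factors came from edgeR 4.0.16, and the rest was computed in Python 3.11.15 with numpy 2.4.6 and scipy 1.17.1. The fold rule was tried on simulated Poisson pools whose planted changes were all larger than its limit. Changes near the limit and spread between cells or cultures were not simulated.

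The text names all 10 members, the other pathway genes past the fold rule, the most captured gene of each role, the 5 nearest patterns of each member past the rule, and PGR and GREB1 as a check of the response. IGFBP1, IGF1, IGF2, PAPPA, STC1, GRB7 and GRB14 were named in addition after their values were seen. The most captured gene of 1 role in T-47D is not reported here. The members and all gene lists were chosen with earlier results of these data known, and the GC box and TATA box were added after the windows were seen. Promoter windows came from the RefSeq table of GRCh38.p14, in which all 10 members were matched.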

Additional observations from a re-analysis of the deposited data

Results flagged for a closer look

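IGFBP5 stood out because every later pool moved one way in Ishikawa and the opposite way in T-47D. Its log2 changes against 0 h were -0.28, -0.45 and -0.63 in Ishikawa (2, 4 and 8 h). In T-47D they were 0.19, 0.36 and 0.54. As each pool is 1 culture, this difference was not tested. The 3 changes of a line share its 0 h pool. In Ishikawa that pool was the one with the fewest called cells within the limits (38.2%), and the change at 8 h was -0.72 with every called cell. Its part in the result beyond this was not tested.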

How the results depend on the processing

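Of 540 member changes recomputed under the alternatives, 492 stayed within the counting interval of the reported value, 48 moved outside it, and none past the fold rule turned its sign. In T-47D every called cell had been kept, so that alternative could only repeat the reported values there. It moved 12 of its 60 values, all of them in Ishikawa. The number of members lower at 8 h in Ishikawa, 2 as reported, was 1 with an upper UMI limit of 1.5 times the median, 1 in cells without TOP2A or MKI67 UMIs, 1 as a mean over cells and 0 at a fold of 2, with IGFBP3 the gene kept in the first 3 cases. At 2 h it was 0 as reported and 1 (IRS2) with every called cell or at the lower fold tried, and at 4 h 1 (IGFBP5) at that lower fold. In T-47D the number higher at 8 h, 2 as reported, was 1 (IGFBP4) at a minimum of 50 CPM and 1 at a fold of 2. IGFBP5 joined the 2 genes with an upper UMI limit of 1.5 times the median and at the lower fold, and IRS1 joined them with no minimum. At 4 h the number, 1 as reported, was 3 at the lower fold. Scaling within a line moved the median of all genes by at most 0.1 in log2 in either line. Between the lines at 0 h, TMM factors left 4 of 10 ratios within their counting intervals. The T-47D over Ishikawa log2 ratio at 0 h turned its sign for IGF2R, to 0.25 with TMM and 0.18 with median-of-ratios factors, and for IGFBP5, to -0.027 without GFP and tdTomato, -0.10 with every called cell and -0.040 as a mean over cells. The causes of these moves were not tested.

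Another random seed left 76 of 80 shares within their intervals, and shares without thinning were higher, as deeper cells show more UMIs. No paired analysis was possible because each line and time is 1 culture. The absence of replicate cultures limits each change, and low counts limit IGF1R, INSR, IRS1, IGFBP4 and IGFBP6 in Ishikawa and INSR, IRS1, IRS2, IGFBP3 and IGFBP6 in T-47D.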
